A study of Mus musculus with 18 samples.

Results

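Some genes in the count table of the mouse beta cell line MIN6 have a further row, which carries the gene's name with the ending os, for opposite strand, sometimes followed by a number. The pairs described here are those with at least 100 counts summed over both rows and all 18 libraries. They number 65 of the 157 pairs in the table, and they hold 129 of its 24557 rows. The 65 pairs belong to 64 genes, because Kcnmb4 has both an os1 and an os2 row. Of the other pairs, 85 had under 100 counts, and 7 pairs of 6 genes were set aside by the rule and are not analysed here. The pairs were chosen by their counts, so the totals of both rows are given as a description, with no test. Just below the limit lay the pairs of Appbp2 with 70, Pitpnm2 with 74 and Slfn5 with 86 counts, and just above it those of Zeb2 with 101, Smc2 with 112 and Dnmt3a with 129.

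Treatment lasted 24 h, with vehicle, DFMO at 5 mM or DENSpm at 10 µM. Each was given alone and together with IFN-γ, TNF-α and IL-1β, which makes 6 groups of 3 libraries. DFMO (difluoromethylornithine) inhibits ornithine decarboxylase, the entry enzyme of polyamine synthesis, and DENSpm (diethylnorspermine) is a polyamine analogue that induces polyamine breakdown. The study compared both ways of lowering polyamines in beta cells under inflammatory stress. The labels call the libraries biological replicates of the cell line, without saying whether they came from separate cultures, so the p-values rest on the spread among libraries, which may be technical.

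Many mammalian genes are transcribed from both DNA strands, and the RNA from the other strand is called an antisense or opposite-strand RNA. Some of these RNAs overlap exons of their partner, some start beside its promoter and run the other way, and a few, such as the one of Uchl1, are known to act on the partner's mRNA. A library kit that keeps the strand lets a counter put each read in the row of the strand it came from, and the counter has to be told whether the first read lies on the RNA's own strand or on its complement. With the setting reversed, reads of a gene go to whatever row lies opposite to it. The labels call these libraries strand-specific, and the setting used at counting is not given in the sources used here. Which strand the counted reads came from was not tested, so each result below is given for the row in which the authors counted it, and nothing is stated about the level of the gene itself.

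The stretches printed next show what a pair shares: each is coding sequence of a gene on its own strand, and its capitals mark the bases that also lie, as the complement, in an exon of the os row (for Peg3 and Msx1, in the body that RefSeq gives the os gene). They come from GENCODE vM21 transcripts on GRCm38, the assembly also called mm10, and were chosen as examples of rows described at length below. Peg3 is shown from chr7:6707565-6707644 on the minus strand, first 5′ to 3′ as the Peg3 mRNA reads and then as the complementary strand reads. Zfhx2 is also shown both ways, from chr14:55074304-55074383 on the minus strand. The others are Msx1 at chr5:37821641-37821700 and Kcnmb4 at chr10:116418347-116418406 (opposite os1) and chr10:116473462-116473521 (opposite os2), all on the minus strand, and Uchl1 at chr5:66676290-66676322 and Sorbs2 at chr8:45745717-45745790 on the plus strand. Med13 at chr11:86286831-86286890 and Prickle4 at chr17:47689427-47689486, both on the minus strand, are the genes that Brip1os and Tomm6os face over the longest stretch of exon.
Peg3: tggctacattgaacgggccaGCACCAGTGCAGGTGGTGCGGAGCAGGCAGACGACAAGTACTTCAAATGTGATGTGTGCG
Peg3 complement: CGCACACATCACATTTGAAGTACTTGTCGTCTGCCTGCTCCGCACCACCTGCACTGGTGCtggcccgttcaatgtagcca
Zfhx2: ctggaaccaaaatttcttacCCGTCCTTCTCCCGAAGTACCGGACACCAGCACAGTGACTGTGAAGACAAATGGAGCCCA
Zfhx2 complement: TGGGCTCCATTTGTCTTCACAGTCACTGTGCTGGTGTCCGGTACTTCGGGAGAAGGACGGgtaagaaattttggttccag
Msx1: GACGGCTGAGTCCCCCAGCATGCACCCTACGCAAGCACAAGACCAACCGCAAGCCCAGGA
Kcnmb4 facing os1: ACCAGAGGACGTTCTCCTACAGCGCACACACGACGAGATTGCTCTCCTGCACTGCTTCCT
Kcnmb4 facing os2: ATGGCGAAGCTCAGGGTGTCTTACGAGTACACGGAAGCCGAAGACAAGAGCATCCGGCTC
Uchl1: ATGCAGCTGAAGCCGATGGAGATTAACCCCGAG
Sorbs2: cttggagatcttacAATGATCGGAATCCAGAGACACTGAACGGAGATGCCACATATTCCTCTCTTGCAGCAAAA
Med13: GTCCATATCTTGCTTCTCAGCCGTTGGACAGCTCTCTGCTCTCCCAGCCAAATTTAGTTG
Prickle4: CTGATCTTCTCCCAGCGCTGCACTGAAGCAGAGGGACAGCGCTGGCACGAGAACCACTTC

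A read that lies within the capitals of any stretch carries the printed letters or their complement. Unless exons of a further gene also cover the stretch, only the strand of such a read decides which of the paired rows receives it. The stretches opposite Kcnmb4os2 and Uchl1os begin with the start codon atg of their gene. In the Zfhx2 complement, the lower-case letters that follow the os exon begin with gtaag, and gt is the usual first letter pair of an intron on the strand being read.

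Library totals ran from 403377 to 639625 counts (median 480476.5). Levels are given below as CPM, counts scaled to a common library total after TMM normalisation. The listed beta cell markers were detected in 9 of 10 cases, with Ins2 between 53.7 and 420 CPM and Chga between 569.7 and 1132 CPM. Ucn3 had no count, and over all libraries Ins1 had 89 counts, Slc30a8 26 and Slc2a2 10. The summed level of the beta cell markers lay between 1715 and 2387 CPM in vehicle and between 1032 and 1174 CPM in vehicle with cytokines. Markers of acinar, ductal, PP, macrophage and endothelial cells were at or below 4.72 CPM in sum in every library, delta cell and fibroblast markers reached 23.6 CPM, and alpha cell markers, 2 of 4 of them without a count, 152 CPM. All markers were read in the gene's own row, with the strand setting unknown. A low or empty marker row therefore does not show which cells were present or absent. Odc1, the enzyme DFMO blocks, had 13 to 20 counts per group. DENSpm 2 stood apart: its chi-square per degree of freedom against DENSpm 1 and 3 was 7.51 and 8.40, where the other replicate pairs lay between 3.49 and 5.67, so calls that involve DENSpm are also given without it. These are bulk libraries, in which fewer cells of a type and less RNA per cell cannot be told apart.

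The os row held more counts than the gene's own row in 50 of the 65 pairs, or 76.9%. It was the higher row in all 18 libraries in 40 pairs, the gene's own row was the higher in all 18 libraries in 7 pairs, and the remaining 18 pairs were mixed or level in some library. Over all libraries the 65 os rows took 4.99% of the table's counts and the 64 gene rows 0.353%. The median pair had 3.61% of its counts in the gene's own row. In 20 pairs the gene's own row held under 1%, in 34 under 5%, in 24 between 5 and 95% and in 7 over 95% of the pair's counts. Per kb of annotated exon, the os row was the higher in 51 of the 61 pairs whose os row GENCODE vM21 lists.

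**Figure D1:**
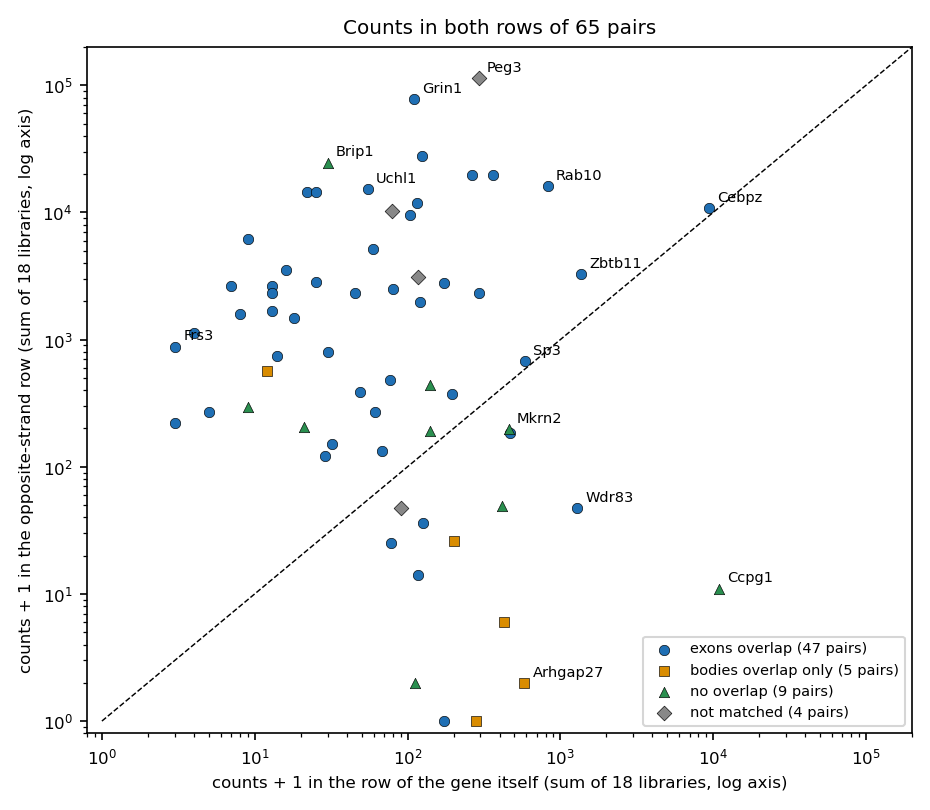
Counts summed over 18 libraries in the gene's own row (horizontal, log axis, counts + 1) and in the os row (vertical, log axis, counts + 1) for the 65 pairs, 1 point a pair, shaped and coloured by how the annotation places the rows. Of the 47 pairs whose exons overlap, 41 lie above the dashed line of equal counts.

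Peg3, a paternally expressed imprinted gene that encodes a zinc finger protein, headed the list with 291 counts in its own row and 113394 in Peg3os. Grin1, the obligatory subunit of NMDA-type glutamate receptors, had 109 counts against 78024 in Grin1os. Tomm6, a small subunit of the mitochondrial import pore, had 124 against 27699, and Brip1, a DNA helicase of the Fanconi anaemia pathway, had 29 against 24616. All 4 genes were thus nearly empty in their own row, whereas their os rows were among the deep ones of the table. Uchl1, a ubiquitin hydrolase of neurons and endocrine cells, had 54 against 15154, Msx1, a homeobox factor, 78 against 10353, and Rab10, a small GTPase of vesicle transport, 823 against 16061. The reverse held for Ccpg1, a receptor for autophagy of the endoplasmic reticulum, with 10957 counts in its own row and 10 in Ccpg1os, and for Wdr83, a WD repeat scaffold protein, with 1284 and 46. Next among the genes with the higher own row came Arhgap27 with 581 counts against 1, Lpp with 466 against 183, Mkrn2 with 458 against 196, Rsf1 with 428 against 5 and Lhx1, a LIM homeobox factor, with 415 against 48. Frmpd1 with 280 counts and Hk1, a hexokinase, with 171 had none in their os row. Cebpz, a nucleolar protein of ribosome biogenesis, was the deepest pair with both rows filled, with 9337 counts in Cebpz and 10757 in Cebpzos. Sp3, a zinc finger transcription factor, followed the same pattern at lower depth with 584 and 672 counts.

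The pairs were also sorted by how their rows lie on the genome. Exons of both rows overlapped in 47 pairs, and there the os row was the higher in 41 and the median share of the gene's own row was 1.82%. In 5 pairs only the gene bodies overlapped, through introns, and the os row was the higher in 1 of them, Slc6a19. The median share of the gene's own row in those 5 was 98.8%. In 9 pairs nothing overlapped; the os row was the higher in 5 of them, with a median own share of 42.4%. The other 4 os rows, Peg3os, Msx1os, Ggnbp2os and Chd3os, were not matched in GENCODE. RefSeq places Peg3os at chr7:6706760-6707624 and Msx1os at chr5:37820564-37822751 of GRCm38.p6, with 865 and 1186 bases inside exons of their partner. Where exons overlapped, the shared stretch was 62 to 3255 bases long (median 261), and it held coding bases of the partner in 33 pairs and only noncoding bases in 14.

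GENCODE classes 48 of the 61 matched os rows as antisense, of which 39 were the higher row, and 6 as protein-coding, of which 3 were. Of the 61 rows, 43 shared their longest stretch of facing exon with the gene they are named for, 6 with another gene, and 12 faced no exon. Brip1os, at chr11:86201370-86304443 on the plus strand, does not touch Brip1. It faces 512 bases of Ints2 and 800 of Med13, a subunit of the Mediator kinase module. Tomm6os, at chr17:47687610-47691083 on the plus strand, faces 1221 bases of Prickle4, 958 of Gm21981 and 219 of Tomm6. Phtf1os faces 2101 bases of Rsbn1, Mccc1os 720 of Ccdc144b, Ino80dos 489 of Ndufs1, a subunit of respiratory complex I, and Fbxl12os 1251 of Gm26521. In these 6 cases the gene faced over the longest stretch was not the one in the row's name. Among the 15 genes whose own row was the higher, 4 face exons of a gene that is not one of their own os rows, as do 10 of the other 49. Ccpg1 faces 2170 bases of Pigb, an enzyme of GPI anchor synthesis. Some rows share exon bases with another gene on their own strand, where reads of both cannot be told apart. Zfhx2os shares 2807 of its 4453 exon bases with Gm20687, Ccpg1 3213 of 7497 with Gm44503, Tomm6 859 of 1131 with Gm21981, and Tomm6os 69 of 2944 with Frs3.

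Tests were run on all rows that passed a count filter, 3302 in the table with DFMO and 3315 in that with DENSpm, with edgeR's quasi-likelihood test and Benjamini-Hochberg adjustment over all of them, and a row was called at an adjusted p below 0.05. Of the 129 rows, 74 passed the filter beside DFMO and 75 beside DENSpm. These were 24 of the 64 gene rows in both tables, and 50 or 51 of the 65 os rows, so the gene rows described by tests are a minority. Depth differed too: tested os rows had a median of 125.5 counts a library, tested gene rows 17.1 and all tested rows 23.4. In the joined 18 libraries, 31 of 81 rows differed among the 6 groups, against 29.3% of all 3713 rows tested. They were 25 of 51 os rows and 6 of 30 gene rows.

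**Figure D2:**
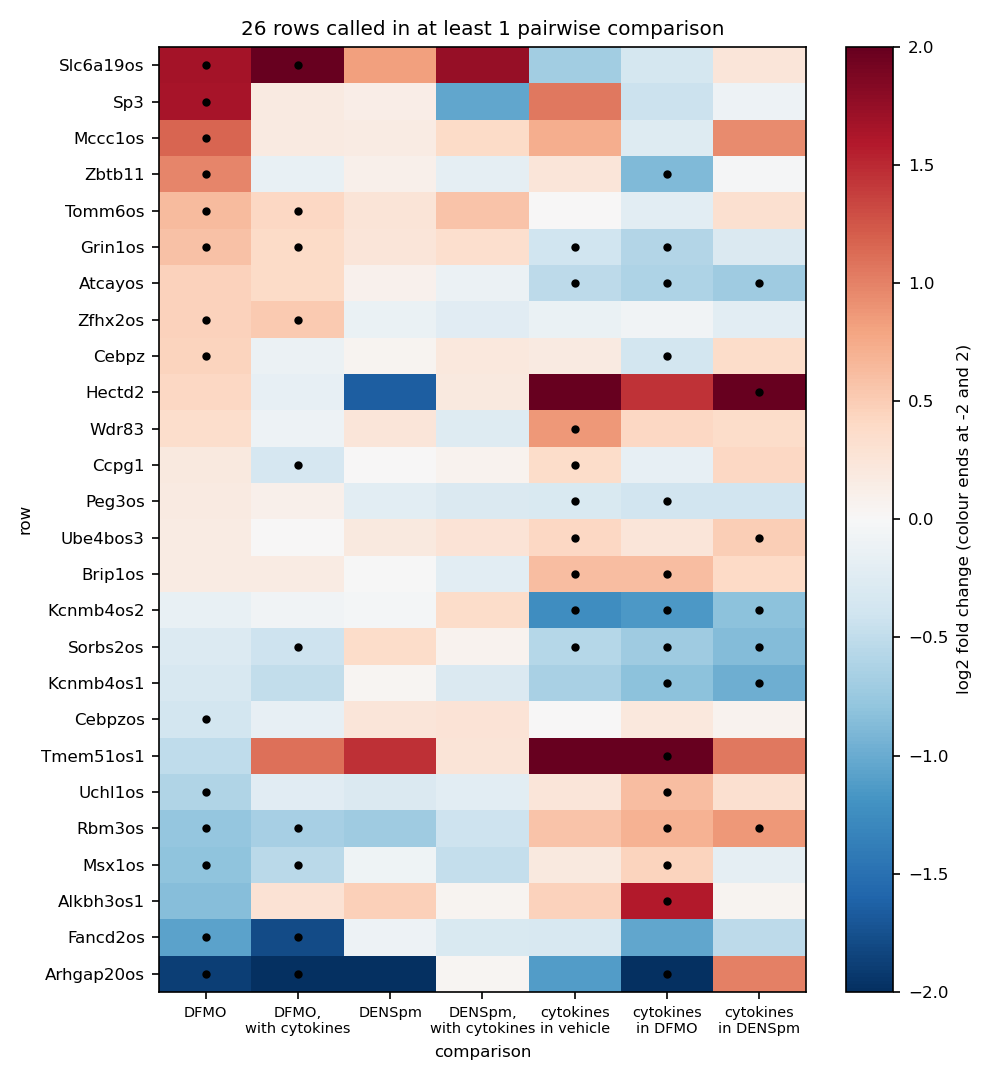
Log2 fold change (colour, limited to -2 and 2) of the 26 rows called in at least 1 pairwise comparison, 1 row of the plot per table row and 1 column per comparison, with a black dot where the adjusted p was below 0.05. Dots stand in the DFMO and cytokine columns, and both columns that compare DENSpm with vehicle have none.

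DFMO against vehicle, without cytokines, moved 14 of the 74 tested rows, 8 up and 6 down, against 14.6% of all rows tested, 8.06% up and 6.54% down. Of the rows called, 11 were os rows and 3 gene rows. With cytokines present, DFMO moved 10 of 74 rows, 4 up and 6 down, against 11.1% of all rows, 5.27% up and 5.78% down. That count was 6 without vehicle with cytokines 1 or without DFMO with cytokines 1, and 5 with all 18 libraries fitted together. Calls over all rows fell as well, from 365 to 256, 282 and 269 in that order. Rows called in both settings were Grin1os, Tomm6os, Zfhx2os and Slc6a19os, all higher with DFMO, and Msx1os, Rbm3os, Fancd2os and Arhgap20os, all lower. How many of all rows tested were called in both settings was not counted. The number of these rows is therefore not a result about the pairs. Both comparisons have their own vehicle libraries, and all 4 groups share 1 estimate of the spread. The test of whether the DFMO effect differed with cytokines called 0 of the 74 rows, against 0.424% of all rows, with 6 rows at an unadjusted p under 0.05 in edgeR.

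Grin1os stood at 8489.7, 9379.7 and 7842 CPM with vehicle, at 12370.2, 13186 and 12255 CPM with DFMO and at 12206, 7190.1 and 10895 CPM with DENSpm. All 3 DFMO libraries lay above all 3 vehicle libraries. DENSpm 1 and 3 lay above every vehicle library and below every DFMO library, and DENSpm 2 lay below every vehicle library. Without DENSpm 2, DENSpm against vehicle gave a log2 fold change of 0.44 in edgeR (adjusted p = 0.0771), not called. With cytokines added, Grin1os stood at 6873, 5742 and 6865 CPM with vehicle, at 9010.1, 8149 and 8473 CPM with DFMO and at 9318, 6985 and 8372 CPM with DENSpm. Again the DFMO libraries lay above the vehicle ones without overlap. Grin1os rose with DFMO by a log2 fold change of 0.58 ± 0.08 (SE, adjusted p = 8.03e-07) without and 0.39 ± 0.08 (SE, adjusted p = 8.43e-04) with cytokines. Of its exon bases, 1307 face Grin1, 1184 of them coding. The row fell with cytokines by a log2 fold change of -0.39 ± 0.08 (SE, adjusted p = 6.05e-04) in vehicle and -0.59 ± 0.08 (SE, adjusted p = 4.03e-07) in DFMO. Fitted with all 18 libraries together, the calls of DFMO with cytokines (adjusted p = 0.0614) and of cytokines in vehicle (adjusted p = 0.0589) were lost. The Grin1 row, with 109 counts in 18 libraries, was tested beside DFMO and not called, at 0.96 ± 1.06 (SE, adjusted p = 0.661) without and 1.45 ± 1.21 (SE, adjusted p = 0.537) with cytokines on the log2 scale. Cytokines in DENSpm called Grin1os when DENSpm 2 was left out, at a log2 fold change of -0.49 (adjusted p = 0.00779), and not with it.

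Tomm6os stood at 2831, 2589 and 2337 CPM with vehicle, at 3743, 4228 and 3817 CPM with DFMO and at 3737, 1956 and 3537 CPM with DENSpm. Vehicle and DFMO did not overlap, and DENSpm 2 alone lay below every vehicle library. With cytokines added, Tomm6os stood at 2768, 2417 and 2552 CPM with vehicle, at 4030.1, 3122 and 3246 CPM with DFMO and at 3352, 3357 and 4816 CPM with DENSpm. All DFMO libraries lay above all vehicle libraries here as well. Tomm6os rose with DFMO by 0.63 ± 0.10 (SE, adjusted p = 4.27e-06) on the log2 scale without cytokines and by 0.42 ± 0.10 (SE, adjusted p = 0.00239) with them. The second call was lost without DFMO with cytokines 1 (adjusted p = 0.0716) and with all 18 libraries fitted together (adjusted p = 0.112). Of the genes that its exons face, Prickle4, a LIM domain protein shown among the sequences, is faced over the longest stretch.

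Zfhx2os stood at 2366, 2525 and 1753 CPM with vehicle, at 3209.5, 2932 and 2838 CPM with DFMO and at 2202, 2255 and 1546 CPM with DENSpm. Zfhx2os lies at chr14:55053869-55075873 on the plus strand, with 3255 exon bases opposite Zfhx2, a zinc finger homeobox factor. The DFMO libraries were the 3 highest of the 9. With cytokines added, Zfhx2os stood at 2149, 1945 and 1917 CPM with vehicle, at 3353, 2675 and 2701 CPM with DFMO and at 1850.1, 1577 and 1728 CPM with DENSpm. They were the 3 highest again. Zfhx2os rose with DFMO by 0.46 ± 0.11 (SE, adjusted p = 0.00168) on the log2 scale without cytokines and by 0.53 ± 0.11 (SE, adjusted p = 4.09e-04) with them. The first of these was not called without vehicle 3 (adjusted p = 0.0633), where the value was 0.30. The row was not called in any cytokine comparison.

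Slc6a19 encodes a neutral amino acid transporter of gut and kidney, and its os row overlaps it through introns alone. Slc6a19os stood at 26.0, 49.5 and 34.6 CPM with vehicle, at 117, 93.2 and 131 CPM with DFMO and at 95.9, 41.1 and 55.4 CPM with DENSpm. Every DFMO library lay above every vehicle library. With cytokines added, Slc6a19os stood at 32.5, 2.20 and 32.7 CPM with vehicle, at 99.0, 66.0 and 109 CPM with DFMO and at 52.7, 63.5 and 111 CPM with DENSpm. Vehicle with cytokines 2 stood far below its group, with 1 count. Slc6a19os rose with DFMO by 1.66 ± 0.43 (SE, adjusted p = 0.00481) on the log2 scale without cytokines and by 2.02 ± 0.47 (SE, adjusted p = 0.00203) with them. Both calls held with each library left out in turn.

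Msx1 is a homeobox transcription factor whose antisense RNA is known from tooth and craniofacial development. Msx1os stood at 1285, 1438 and 1406 CPM with vehicle, at 674, 845 and 817 CPM with DFMO and at 1469, 1062 and 1327 CPM with DENSpm. The 3 DFMO libraries lay below all others without cytokines. With cytokines added, Msx1os stood at 1488, 1763 and 1429 CPM with vehicle, at 1362, 831 and 1058 CPM with DFMO and at 1082, 956 and 1350.4 CPM with DENSpm. No DFMO library with cytokines reached the vehicle range, and DFMO with cytokines 1 came closest. Msx1os fell with DFMO by a log2 fold change of -0.80 ± 0.13 (SE, adjusted p = 8.19e-06) without cytokines and of -0.54 ± 0.13 (SE, adjusted p = 0.00247) with them. The latter call was lost without DFMO with cytokines 2 (adjusted p = 0.0641). Cytokines raised the row in DFMO by 0.45 ± 0.13 (SE, adjusted p = 0.015) on the log2 scale, a call lost without DFMO 1 or DFMO with cytokines 1 in turn (adjusted p = 0.122 to 0.218), with a value of 0.28 without the latter.

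Uchl1os stood at 1731, 1868 and 1994 CPM with vehicle, at 1142, 1118 and 1361 CPM with DFMO and at 1493, 1111 and 1922 CPM with DENSpm. Uchl1os spans chr5:66626495-66676498 on the minus strand, and 295 of its exon bases face the start of Uchl1, among them the printed start codon. The DFMO libraries lay below all vehicle libraries; DENSpm 2 lay as low as they did. With cytokines added, Uchl1os stood at 1984, 2478 and 2120.2 CPM with vehicle, at 1814, 2036 and 1805 CPM with DFMO and at 1683, 1815 and 2172 CPM with DENSpm. With cytokines the DFMO libraries overlapped the vehicle ones. Uchl1os fell with DFMO by a log2 fold change of -0.60 ± 0.11 (SE, adjusted p = 4.71e-05) without cytokines, and stood at -0.23 ± 0.11 (SE, adjusted p = 0.187) with them. In DFMO, cytokines raised it by 0.62 ± 0.11 (SE, adjusted p = 2.62e-05) on the log2 scale. Both calls held with each library left out.

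Rbm3 encodes an RNA-binding protein induced by cold. Rbm3os stood at 216, 273 and 231 CPM with vehicle, at 136, 118 and 158 CPM with DFMO and at 157, 131 and 150.2 CPM with DENSpm. Vehicle stood above both drugs without overlap. With cytokines added, Rbm3os stood at 350.0, 474 and 241 CPM with vehicle, at 233, 228 and 219 CPM with DFMO and at 240.5, 272 and 286 CPM with DENSpm. The vehicle libraries with cytokines ranged widely, and the lowest of them was close to the DFMO libraries. Rbm3os fell with DFMO by a log2 fold change of -0.78 ± 0.23 (SE, adjusted p = 0.0126) without cytokines and of -0.66 ± 0.22 (SE, adjusted p = 0.0366) with them. The first was lost without vehicle 2 or DFMO 2 in turn (adjusted p = 0.0687 to 0.0737), and the second without vehicle with cytokines 1 and 2 or DFMO with cytokines 1, 2 and 3 in turn (adjusted p = 0.0757 to 0.385) and in DESeq2, with no filter on low counts or with all 18 libraries fitted together (adjusted p = 0.0517 to 0.088). Without vehicle with cytokines 2, the second value was -0.39. With DENSpm the fold change was -0.70 ± 0.23 (SE, adjusted p = 0.18), not called. Cytokines raised Rbm3os by 0.69 ± 0.23 (SE, adjusted p = 0.0339) on the log2 scale in DFMO and by 0.87 ± 0.23 (SE, adjusted p = 0.0143) in DENSpm. These calls were lost without DFMO 1 and 2 or DFMO with cytokines 1, 2 and 3 in turn (adjusted p = 0.0626 to 0.136) and with no filter on low counts (adjusted p = 0.0603) for DFMO, and without DENSpm with cytokines 2 and 3 in turn (adjusted p = 0.0523 to 0.0547) for DENSpm.

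Fancd2 is the central protein of the Fanconi anaemia DNA repair pathway, and Fancd2os is annotated as a protein-coding gene that shares 257 noncoding exon bases with it. Fancd2os stood at 104, 123 and 140.2 CPM with vehicle, at 44.4, 86.5 and 41.6 CPM with DFMO and at 116, 119 and 105 CPM with DENSpm. DFMO libraries were below vehicle and DENSpm without overlap. With cytokines added, Fancd2os stood at 55.6, 87.8 and 149 CPM with vehicle, at 32.1, 15.9 and 36.9 CPM with DFMO and at 80.2, 105 and 47.2 CPM with DENSpm. The order of vehicle and DFMO was the same with cytokines, at 7 to 17 counts a library in DFMO. Fancd2os fell with DFMO by a log2 fold change of -1.07 ± 0.38 (SE, adjusted p = 0.0478) without cytokines and of -1.78 ± 0.42 (SE, adjusted p = 0.00221) with them. The first call was lost without vehicle 1, 2 and 3 or DFMO 1 and 3 in turn (adjusted p = 0.0654 to 0.218) and in DESeq2, with no filter on low counts or with all 18 libraries fitted together (adjusted p = 0.055 to 0.134), and the second without vehicle with cytokines 3 (adjusted p = 0.0651).

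Arhgap20, a GTPase-activating protein, has 162 coding exon bases opposite its os row. Arhgap20os held 22, 43 and 31 counts with vehicle, 5, 10 and 7 with DFMO and 5, 9 and 7 with DENSpm. With cytokines, Arhgap20os held 20, 4 and 12 counts with vehicle, 1, 0 and 2 with DFMO and 18, 8 and 15 with DENSpm. DFMO libraries were below vehicle libraries in both settings, with few counts. Arhgap20os fell with DFMO by a log2 fold change of -1.89 ± 0.65 (SE, adjusted p = 0.0431) without cytokines. With them, the ratio of summed counts per total was 0.0861 (95% exact interval 0.017 to 0.272, counting error only) at an adjusted p of 0.00557, and a fitted fold change from so few counts depends on the prior count. In DFMO, cytokines against none gave a ratio of 0.148 (95% exact interval 0.0284 to 0.493, counting error only) at an adjusted p of 0.0464. These intervals treat each count as an independent event, which was not tested, so they may be too narrow. The call of DFMO alone was lost without vehicle 1, 2 and 3 or DFMO 1, 2 and 3 in turn (adjusted p = 0.0522 to 0.282) and with no filter on low counts or with all 18 libraries fitted together (adjusted p = 0.0583 to 0.164). The call of DFMO with cytokines was lost without vehicle with cytokines 1 (adjusted p = 0.0658), and that of cytokines in DFMO without vehicle 1, 2 and 3, vehicle with cytokines 1 and 3, DFMO 1, 2 and 3 or DFMO with cytokines 1, 2 and 3 in turn (adjusted p = 0.0515 to 0.199) and in DESeq2, with no filter on low counts, with halved counts or with all 18 libraries fitted together (adjusted p = 0.0616 to 0.162).

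**Figure D3:**
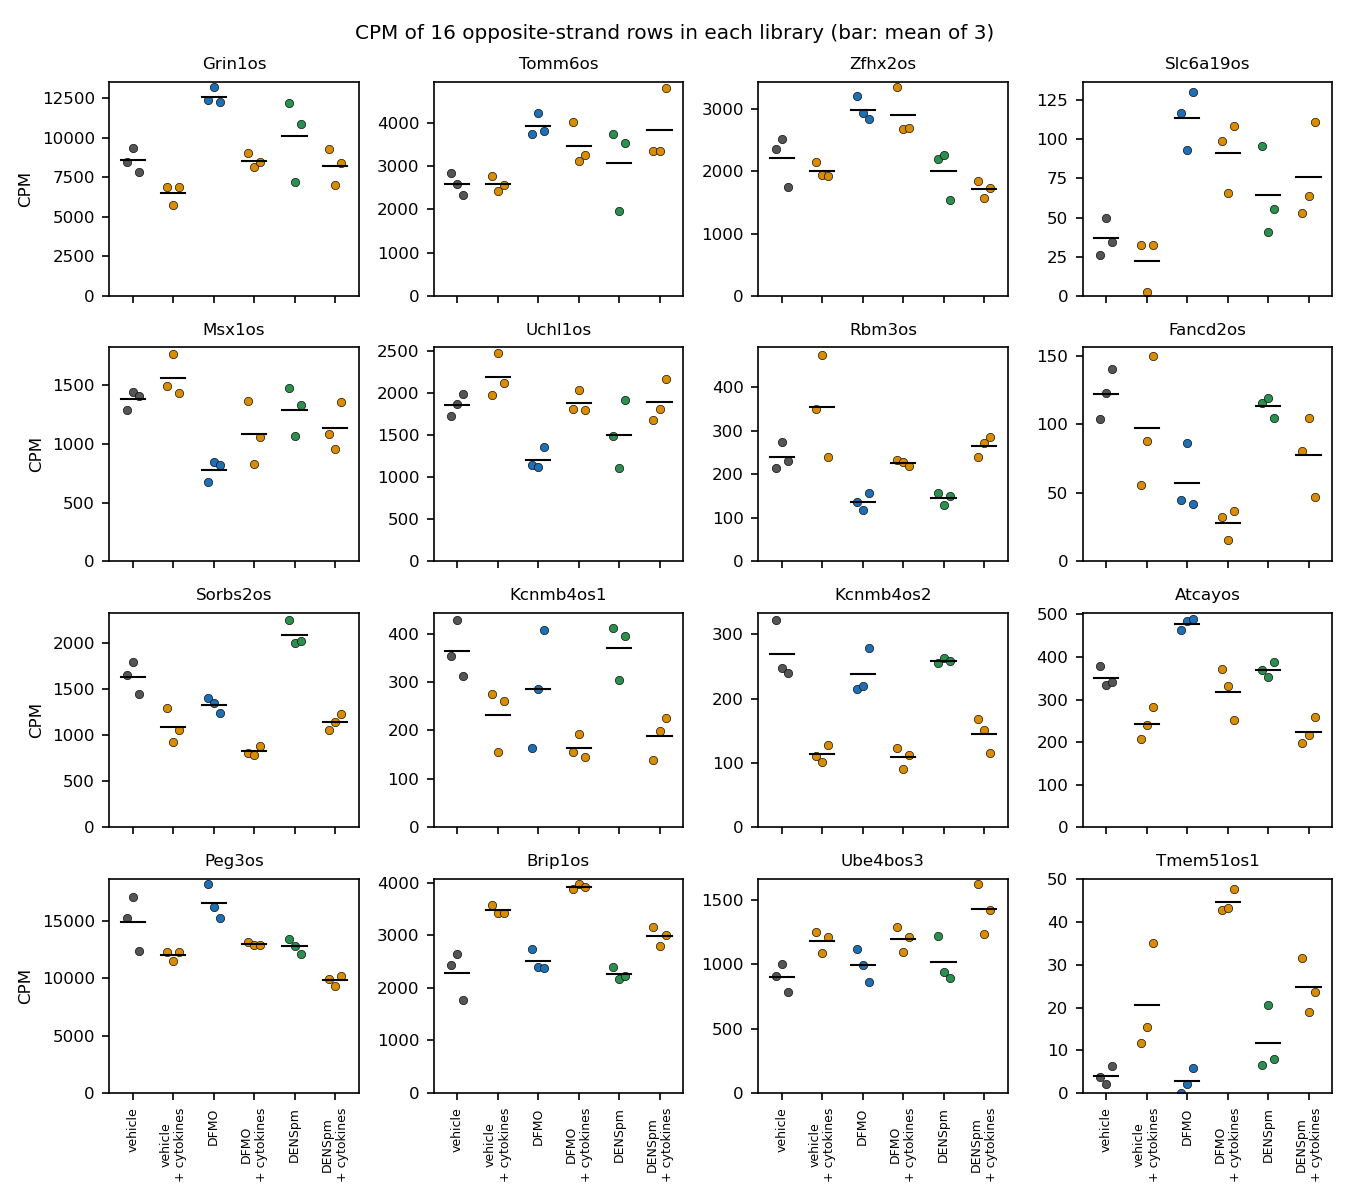
CPM (vertical, linear axis from 0, a scale per panel) of 16 os rows in each of the 18 libraries, by group (horizontal), with a bar at the mean of 3 and cytokine groups in orange. Grin1os sits between 12255 and 13186 CPM with DFMO against 7842 to 9379.7 CPM with vehicle, and Kcnmb4os2 sits lower in each cytokine group than in the group without cytokines.

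Both rows could be tested in 17 pairs, 15 in each table and 13 in both, and DFMO called both rows in 1 of them, Cebpz, in opposite directions. Cebpz stood at 1002, 947 and 898 CPM with vehicle, at 1092, 1464 and 1251 CPM with DFMO and at 1020.3, 887 and 1014 CPM with DENSpm. Cebpzos stood at 1112, 1367 and 1195 CPM with vehicle, at 1039, 801 and 974 CPM with DFMO and at 1275, 1575 and 1437 CPM with DENSpm. The Cebpz row was highest and the Cebpzos row lowest in DFMO. With cytokines added, Cebpz stood at 969, 1163 and 1090.4 CPM with vehicle, at 977, 1047 and 966 CPM with DFMO and at 1042, 1191 and 1520.4 CPM with DENSpm. With cytokines added, Cebpzos stood at 1252, 1185 and 1256 CPM with vehicle, at 1076, 1234 and 1016 CPM with DFMO and at 1542, 1478 and 1464 CPM with DENSpm. With cytokines, the DFMO libraries overlapped the vehicle ones in both rows. Cebpz rose with DFMO by 0.44 ± 0.12 (SE, adjusted p = 0.00561) on the log2 scale and Cebpzos fell by a log2 fold change of -0.36 ± 0.12 (SE, adjusted p = 0.0302). The Cebpz call was lost without DFMO 2 (adjusted p = 0.163), and the Cebpzos call without vehicle 2 or DFMO 2 and 3 in turn (adjusted p = 0.0534 to 0.208) and with no filter on low counts or with all 18 libraries fitted together (adjusted p = 0.056 to 0.126). Cytokines lowered Cebpz in DFMO by a log2 fold change of -0.37 ± 0.12 (SE, adjusted p = 0.0241), a call lost without vehicle with cytokines 3, DFMO 2 and 3 or DFMO with cytokines 1 and 3 in turn (adjusted p = 0.0563 to 0.36) and with no filter on low counts or with all 18 libraries fitted together (adjusted p = 0.127 to 0.152). Without DFMO 2 that value was -0.23. Cebpzos is itself annotated as protein-coding, and its exons share 171 bases with those of Cebpz, 41 of them coding.

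As a share of the pair, Cebpz held 47.4, 40.9 and 42.9% of counts in vehicle and 51.3, 64.6 and 56.2% in DFMO. Its share was 44.4, 36.0 and 41.4% in DENSpm. With cytokines Cebpz held 43.6, 49.5 and 46.5% in vehicle, 47.6, 45.9 and 48.7% in DFMO and 40.3, 44.6 and 50.9% in DENSpm. The share was above the vehicle range in all 3 libraries with DFMO alone, and groups of 3 against 3 allow no exact test below 0.05.

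Sp3 stood at 37.2, 32.3 and 47.2 CPM with vehicle, at 109.9, 129 and 129 CPM with DFMO and at 19.6, 63.5 and 43.5 CPM with DENSpm. Each DFMO library stood above every vehicle and every DENSpm library. The Sp3 row rose by 1.66 ± 0.35 (SE, adjusted p = 4.55e-04) on the log2 scale, while Sp3os stood at -0.26 ± 0.35 (SE, adjusted p = 0.75) and was not called. With cytokines added, Sp3 stood at 81.1, 96.6 and 65.4 CPM with vehicle, at 115, 70.6 and 93.4 CPM with DFMO and at 52.7, 34.9 and 30.7 CPM with DENSpm. With cytokines the vehicle libraries were higher than without them, and DFMO overlapped them. Cytokines in vehicle gave 1.05 ± 0.36 (SE, adjusted p = 0.0502) for the Sp3 row, just outside the threshold. Sp3os held 109.7, 68.9 and 88.2 CPM in vehicle and 67.8, 73.2 and 79.2 CPM in DFMO, with overlap. The share of the Sp3 row in the pair was 25.3, 31.9 and 34.9% in vehicle, 61.8, 63.7 and 61.9% in DFMO and 29.0, 36.2 and 57.9% in DENSpm. Both rows share 109 exon bases.

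Zbtb11 encodes a zinc finger factor with a BTB domain. Zbtb11 stood at 154, 131 and 110.2 CPM with vehicle, at 234, 235 and 295 CPM with DFMO and at 150.4, 93.3 and 178 CPM with DENSpm. The 3 DFMO libraries were the highest. With cytokines added, Zbtb11 stood at 109, 222 and 133 CPM with vehicle, at 139, 148 and 137 CPM with DFMO and at 105, 148 and 158 CPM with DENSpm. Vehicle with cytokines 2 was the highest of these 9. The Zbtb11 row rose with DFMO by 0.98 ± 0.25 (SE, adjusted p = 0.00386) on the log2 scale, and Zbtb11os1 stood at -0.10 ± 0.17 (SE, adjusted p = 0.808). In DFMO, cytokines lowered Zbtb11 by a log2 fold change of -0.88 ± 0.25 (SE, adjusted p = 0.0121), a call lost without DFMO 3 or DFMO with cytokines 3 in turn (adjusted p = 0.0533 to 0.0914). Zbtb11os1 held 502, 418 and 447 CPM in vehicle, 416, 364 and 475 CPM in DFMO and 259, 418 and 235 CPM in DENSpm. All 3 gene rows called with DFMO alone, Cebpz, Sp3 and Zbtb11, were higher, and their os rows were lower (Cebpzos) or not called (Sp3os and Zbtb11os1). They were 3 of 24 gene rows tested (12.5%), against 14.6% of all rows, so their number does not set the gene rows apart. Of its 7442 exon bases, Mccc1os has 720 opposite Ccdc144b and 198 opposite Mccc1. Mccc1os rose with DFMO by 1.16 ± 0.34 (SE, adjusted p = 0.0143) on the log2 scale, from 68.8, 68.9 and 33.1 CPM in vehicle to 143, 138 and 93.0 CPM. The call was lost without vehicle 3 or DFMO 1 and 2 in turn (adjusted p = 0.0718 to 0.152).

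**Figure D4:**
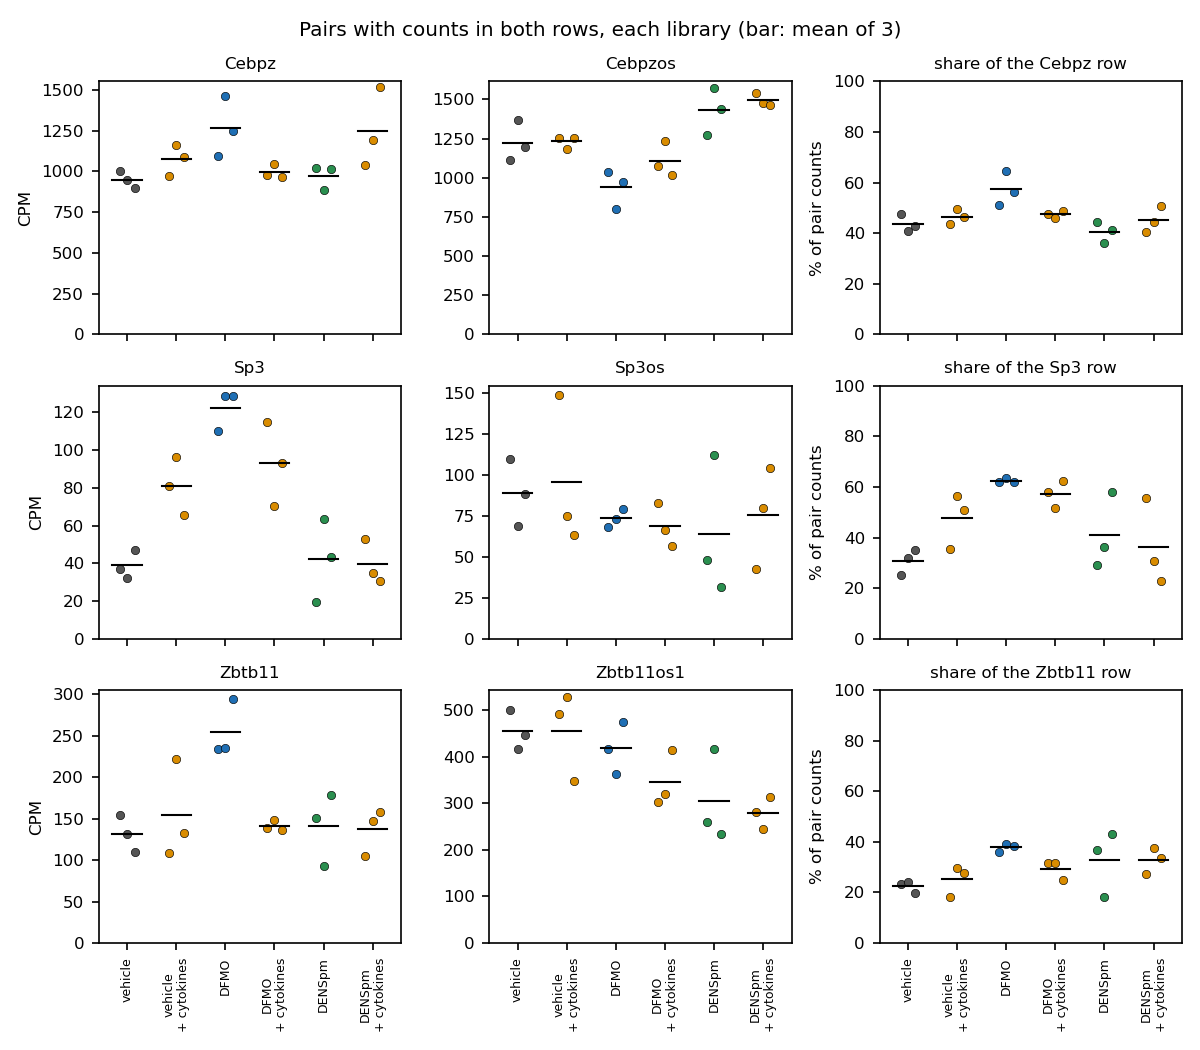
CPM (vertical, linear axis) of the gene row (left) and the os row (middle) and the percent of the pair's counts in the gene row (right) for Cebpz, Sp3 and Zbtb11 in each library, by group, with a bar at the mean of 3. In DFMO without cytokines the Sp3 row holds 61.8 to 63.7% of the pair, against 25.3 to 34.9% in vehicle.

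Cytokines against none moved 9 of 74 rows in vehicle, 4 up and 5 down, against 9.9% of all rows tested, 6.42% up and 3.48% down. In DFMO they moved 15 of 74 rows, 6 up and 9 down, against 13.1% of all rows, 7.03% up and 6.09% down. In DENSpm they moved 7 of 75, 3 up and 4 down, against 7.42%, 4.77% up and 2.65% down. The count in vehicle was 4 without vehicle 1, 5 without vehicle 3, 5 with no filter on low counts and 4 with all 18 libraries fitted together. Calls over all rows fell as well, from 327 to 228, 270, 255 and 260 in that order. In DFMO the count was 9 without DFMO 2 and 8 without DFMO with cytokines 3. Over all rows, these fits gave 335 and 323 calls, against 433. In DENSpm the count was 3 without DENSpm with cytokines 2, 4 without DENSpm with cytokines 3 and 4 with no filter. Over all rows, these fits gave 196, 189 and 203 calls, against 246. Of the 72 rows tested in both tables, 19 were called in at least 1 background (26.4%, against 18.7% of all 3031 rows) and 3 in all of them (4.17%, against 5.08%). Those 3, Sorbs2os, Kcnmb4os2 and Atcayos, were lower with cytokines each time, as were 1.29% of all rows. Without DENSpm 2, cytokines in DENSpm called 7 rows, 1 up and 6 down, against 5.92% of all rows; Hectd2 and Ube4bos3 were lost and Grin1os and Peg3os gained. The summed beta cell markers lay lower with cytokines in vehicle (values above) and in DFMO (1630.3 to 1898 CPM without and 942 to 1088 CPM with cytokines), with overlap in DENSpm at 1553 to 1716 and 1428 to 1985 CPM; their part in these results was not tested. The gene rows' share of the counts in all 65 pairs was 5.32 to 6.18% in vehicle and 6.72 to 7.80% in vehicle with cytokines. It was 6.11 to 6.78% in DFMO and 6.17 to 6.73% with cytokines added, and 5.86 to 6.17% in DENSpm and 7.45 to 8.09% with cytokines added. This pooled share is weighted by depth and does not describe the typical pair. The deepest gene rows were Ccpg1 with 10957 counts and Cebpz with 9337, and the deepest os rows Peg3os with 113394 and Grin1os with 78024.

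Sorbs2 encodes an adaptor protein with SH3 domains that links the cytoskeleton to signalling. Sorbs2os stood at 1654, 1786 and 1442 CPM with vehicle, at 1401, 1346 and 1235 CPM with DFMO and at 2248, 1999 and 2013 CPM with DENSpm. With cytokines added, Sorbs2os stood at 1296, 919.8 and 1051 CPM with vehicle, at 803, 781 and 884 CPM with DFMO and at 1053, 1135 and 1225 CPM with DENSpm. Each cytokine group lay below its partner without cytokines, with no overlap. Sorbs2os fell with cytokines by log2 fold changes of -0.57 ± 0.12 (SE, adjusted p = 3.30e-04) in vehicle, -0.71 ± 0.12 (SE, adjusted p = 8.49e-06) in DFMO and -0.87 ± 0.14 (SE, adjusted p = 4.92e-05) in DENSpm. These 3 calls held with every library left out. DFMO lowered the row with cytokines present by a log2 fold change of -0.41 ± 0.12 (SE, adjusted p = 0.0168), a call lost without vehicle with cytokines 1 or DFMO with cytokines 1 and 2 in turn (adjusted p = 0.065 to 0.216) and with no filter on low counts or with all 18 libraries fitted together (adjusted p = 0.0614 to 0.0718). Its position is chr8:45723325-45819297 on the minus strand, with 1051 exon bases opposite Sorbs2, 84 of them coding.

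Kcnmb4 is the beta subunit of the BK calcium-activated potassium channel that prevails in neurons, and its os rows lie at opposite ends of it. Kcnmb4os1, at chr10:116418052-116421237, faces 355 exon bases at the end of the gene and Kcnmb4os2, at chr10:116473163-116475319, faces 693 at its start, both on the plus strand, so the rows share a partner and are not independent members. Kcnmb4os2 stood at 322, 248 and 239 CPM with vehicle, at 215, 219.6 and 279 CPM with DFMO and at 255, 263 and 259 CPM with DENSpm. With cytokines added, Kcnmb4os2 stood at 111, 101 and 128 CPM with vehicle, at 123, 91.1 and 113 CPM with DFMO and at 169, 151 and 116 CPM with DENSpm. Kcnmb4os2 was lower with cytokines in each background, with no overlap. Kcnmb4os1 stood at 353, 428 and 312 CPM with vehicle, at 164, 286 and 408 CPM with DFMO and at 412, 304 and 395 CPM with DENSpm. With cytokines added, Kcnmb4os1 stood at 276, 156 and 262 CPM with vehicle, at 155, 194 and 145 CPM with DFMO and at 139, 198 and 227 CPM with DENSpm. Kcnmb4os1 spread widely in DFMO and overlapped there between the groups. For Kcnmb4os2 the log2 fold changes were -1.24 ± 0.24 (SE, adjusted p = 1.14e-04) in vehicle, -1.16 ± 0.24 (SE, adjusted p = 3.17e-04) in DFMO and -0.83 ± 0.23 (SE, adjusted p = 0.0192) in DENSpm. For Kcnmb4os1 they were -0.65 ± 0.23 (SE, adjusted p = 0.0672), -0.83 ± 0.24 (SE, adjusted p = 0.0144) and -0.97 ± 0.23 (SE, adjusted p = 0.00471), of which the first was not called. The DENSpm call of Kcnmb4os2 was lost without DENSpm 1 or DENSpm with cytokines 2 and 3 in turn (adjusted p = 0.0526 to 0.123) and with no filter on low counts (adjusted p = 0.0879) and the DFMO call of Kcnmb4os1 was lost without DFMO 2 and 3 or DFMO with cytokines 1 and 3 in turn (adjusted p = 0.0502 to 0.295), with a value of -0.47 without DFMO 3. Kcnmb4 itself had 12 counts in all, each of them in DFMO 3.

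Atcay encodes caytaxin, a protein of neurons. Atcayos stood at 379, 334 and 342 CPM with vehicle, at 463, 484 and 489 CPM with DFMO and at 368, 353 and 387 CPM with DENSpm. With cytokines added, Atcayos stood at 206, 239 and 283 CPM with vehicle, at 372, 332 and 252 CPM with DFMO and at 198, 216 and 259.7 CPM with DENSpm. Cytokine libraries lay below the others within each background. Atcayos fell with cytokines by log2 fold changes of -0.53 ± 0.18 (SE, adjusted p = 0.048) in vehicle, -0.62 ± 0.17 (SE, adjusted p = 0.0109) in DFMO and -0.72 ± 0.19 (SE, adjusted p = 0.0139) in DENSpm. The vehicle call was lost without vehicle 1, 2 and 3, vehicle with cytokines 1 and 2, DFMO 1, 2 and 3 or DFMO with cytokines 2 and 3 in turn (adjusted p = 0.0512 to 0.244) and with no filter on low counts or with all 18 libraries fitted together (adjusted p = 0.0777 to 0.144). In DFMO it was lost without DFMO 2 or DFMO with cytokines 3 in turn (adjusted p = 0.0538 to 0.134), and in DENSpm without DENSpm with cytokines 1 and 2 in turn (adjusted p = 0.0641 to 0.0783) and with no filter on low counts (adjusted p = 0.0762). DFMO alone gave 0.47 ± 0.17 (SE, adjusted p = 0.0576), not called, with all 3 DFMO libraries above the vehicle ones.

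Peg3os stood at 15286, 17154 and 12396 CPM with vehicle, at 18265, 16207 and 15301 CPM with DFMO and at 13475, 12796 and 12109 CPM with DENSpm. With cytokines added, Peg3os stood at 12269, 11551 and 12331 CPM with vehicle, at 13179, 12954 and 12912 CPM with DFMO and at 9938, 9353 and 10208 CPM with DENSpm. The cytokine groups lay below their partners in each background, most narrowly in vehicle, where vehicle 3 stood just above vehicle with cytokines 3. Peg3os fell with cytokines by log2 fold changes of -0.30 ± 0.09 (SE, adjusted p = 0.0131) in vehicle and -0.38 ± 0.09 (SE, adjusted p = 0.00106) in DFMO, and stood at -0.38 ± 0.12 (SE, adjusted p = 0.053) in DENSpm. The vehicle call was lost without vehicle 1 and 2 or vehicle with cytokines 2 in turn (adjusted p = 0.0672 to 0.259) and with all 18 libraries fitted together (adjusted p = 0.0883), with a value of -0.19 without vehicle 2. Without DENSpm 2 the value in DENSpm was -0.38 (adjusted p = 0.0422), a call. As the deepest os row it had 4324 to 8223 counts a library.

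Brip1os stood at 2431, 2649 and 1776 CPM with vehicle, at 2737, 2389 and 2387 CPM with DFMO and at 2389, 2163 and 2232 CPM with DENSpm. With cytokines added, Brip1os stood at 3572, 3427 and 3435 CPM with vehicle, at 3883, 3969 and 3924 CPM with DFMO and at 3164, 2803 and 3005 CPM with DENSpm. Every cytokine library was above every library without cytokines. Brip1os rose with cytokines by log2 fold changes of 0.62 ± 0.10 (SE, adjusted p = 9.95e-06) in vehicle and 0.62 ± 0.10 (SE, adjusted p = 5.82e-06) in DFMO. In DENSpm the value was 0.41 ± 0.13 (SE, adjusted p = 0.0609), not called, and 0.37 (adjusted p = 0.119) without DENSpm 2. The called values held with each library left out. Among the sequences, the stretch of Med13 lies opposite this row, which also faces 512 exon bases of Ints2.

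Ube4b is a ubiquitin chain-elongating ligase, and Ube4bos3 faces 296 of its exon bases. Ube4bos3 stood at 911, 1001 and 786 CPM with vehicle, at 1118, 994 and 867 CPM with DFMO and at 1219, 939 and 894 CPM with DENSpm. With cytokines added, Ube4bos3 stood at 1254, 1091 and 1212 CPM with vehicle, at 1287, 1093 and 1214 CPM with DFMO and at 1624, 1234 and 1426 CPM with DENSpm. The groups with and without cytokines did not overlap in vehicle and DENSpm, and did in DFMO. Ube4bos3 rose with cytokines by log2 fold changes of 0.41 ± 0.12 (SE, adjusted p = 0.0173) in vehicle and 0.49 ± 0.15 (SE, adjusted p = 0.0368) in DENSpm. The former call was lost without vehicle 1 and 3 or vehicle with cytokines 1 and 3 in turn (adjusted p = 0.0642 to 0.143) and with no filter on low counts or with all 18 libraries fitted together (adjusted p = 0.0915 to 0.0969). The latter was lost without vehicle 1 and 2, vehicle with cytokines 1 and 3, DENSpm 2 and 3 or DENSpm with cytokines 1 and 3 in turn (adjusted p = 0.0507 to 0.258) and with no filter on low counts (adjusted p = 0.0616).

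Of 24 gene rows tested, cytokines called 2 in vehicle (8.33%, against 9.9% of all rows), 2 in DFMO (8.33%, against 13.1%) and 1 in DENSpm (4.17%, against 7.42%). Wdr83 and Ccpg1 rose in vehicle, Hectd2 rose in DENSpm, and Cebpz and Zbtb11 fell in DFMO as given above. Wdr83 stood at 117, 96.9 and 107 CPM in vehicle and 174, 222 and 187 CPM with cytokines, without overlap. Its log2 fold change was 0.86 ± 0.26 (SE, adjusted p = 0.0223), and the call was lost without vehicle 1, 2 and 3 or vehicle with cytokines 2 in turn (adjusted p = 0.0527 to 0.121) and with no filter on low counts (adjusted p = 0.0622). Ccpg1 stood at 1154, 1291 and 959 CPM in vehicle and 1393, 1422 and 1527 CPM with cytokines, again without overlap. Its log2 fold change was 0.36 ± 0.11 (SE, adjusted p = 0.028), lost without vehicle 1 and 3 or vehicle with cytokines 2 and 3 in turn (adjusted p = 0.0656 to 0.245) and with no filter on low counts or with all 18 libraries fitted together (adjusted p = 0.133 to 0.173). With cytokines, Ccpg1 was lower in DFMO, at 1076, 1102 and 1299 CPM, by a log2 fold change of -0.33 ± 0.11 (SE, adjusted p = 0.049). That call was lost without vehicle 1 and 2, vehicle with cytokines 1, 2 and 3, DFMO 1, 2 and 3 or DFMO with cytokines 1 and 2 in turn (adjusted p = 0.0535 to 0.229) and with DESeq2 size factors, with no filter on low counts or with all 18 libraries fitted together (adjusted p = 0.0547 to 0.289).

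Hectd2, a ubiquitin ligase gene, held 0, 0 and 4 counts in DENSpm and 8, 43 and 17 with cytokines, and its os row faces 1834 of its exon bases. The ratio of summed counts per total was 16.7 (95% exact interval 6.23 to 63.0, counting error only) at an adjusted p of 0.0192, lost without DENSpm 1 and 2 or DENSpm with cytokines 2 in turn (adjusted p = 0.0668 to 0.127). Without DENSpm 3, DENSpm held 0 counts, and no ratio could be formed. With 3 counts set in their place over the group, the ratio was 14.8, which is not a lower bound of the effect. Tmem51os1, opposite a membrane protein gene, held 0, 1 and 3 counts in DFMO and 16, 19 and 22 with cytokines. For Tmem51os1 the ratio was 15.5 (95% exact interval 5.73 to 58.8, counting error only) at an adjusted p of 0.00457, and the row was called without each library in turn. The intervals of Hectd2 and Tmem51os1 also treat each count as an independent event, and may be too narrow. Both rows were called in a single background, at a depth where the fitted fold change depends on the prior count. Alkbh3os1, opposite a DNA repair demethylase, rose in DFMO by 1.59 ± 0.55 (SE, adjusted p = 0.0455) on the log2 scale, lost without vehicle with cytokines 1, DFMO 2 and 3 or DFMO with cytokines 1, 2 and 3 in turn (adjusted p = 0.0544 to 0.187) and with no filter on low counts (adjusted p = 0.149).

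DENSpm against vehicle called 0 of the 75 tested rows, against 0.543% of all rows, with 9 rows at an unadjusted p under 0.05 in edgeR and 1 call in DESeq2. With cytokines present it called 0 of 75, against 1.33%, with 11 rows at an unadjusted p under 0.05 and 2 calls in DESeq2. Whether its effect differed with cytokines was called for 0 rows as well, against 0% of all rows, with 5 rows at an unadjusted p under 0.05 and 0 in DESeq2. A value that misses the threshold does not show that the row was unaltered. Rsf1, a chromatin remodelling subunit whose own row is the higher, held 27.9, 12.9 and 15.7 CPM in vehicle and 76.3, 93.3 and 51.4 CPM in DENSpm, with no overlap, at 1.96 ± 0.49 (SE, adjusted p = 0.064) on the log2 scale. DESeq2 called it, at an adjusted p of 0.0184, and edgeR did so without DENSpm 3 (adjusted p = 0.0412), without DENSpm with cytokines 3 (adjusted p = 0.0361), with halved counts (adjusted p = 0.04) and with all 18 libraries fitted together (adjusted p = 0.0331). Without DENSpm 2 the value was 1.75 ± 0.55 (SE, adjusted p = 0.149). Zbtb11os1 stood at -0.71 ± 0.21 (SE, adjusted p = 0.0909) with cytokines, and Tomm6os at 0.57 ± 0.17 (SE, adjusted p = 0.0936), which was called with no filter on low counts (0.60, adjusted p = 0.00406). Without DENSpm 2, which stood apart from its group, 3 rows were called with cytokines present, Tomm6os (adjusted p = 0.00576), Zbtb11os1 (adjusted p = 0.0199) and Msx1os (adjusted p = 0.0315), and 1 without cytokines, Zbtb11os1 (adjusted p = 0.024). Calls over all rows were more as well without DENSpm 2, 92 (2.48% of 3717 rows) against 44 with cytokines and 32 (0.861%) against 18 without them. With all libraries, the DENSpm values of the 8 rows that DFMO moved in both settings were not called. DFMO and DENSpm were compared with the same vehicle libraries and not with each other, and whether their effects differ was not tested.

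A further 7 rows differed among the 6 groups without a call in any pairwise comparison: Far1os, Ggnbp2os, Phtf1os, Slain1os, Tnk2os, Rsf1 and Zbtb11os1. Far1os, opposite a gene of ether lipid synthesis, held 625, 628 and 631 CPM in vehicle, 454, 530.1 and 427 in DFMO and 741, 778 and 761 in DENSpm. The 3 groups were apart from each other there, with DENSpm highest and DFMO lowest. Tnk2os, opposite a tyrosine kinase gene, held 225, 213 and 231 CPM in vehicle with cytokines, 198, 164 and 211 in DFMO with cytokines and 392, 269.9 and 404 in DENSpm with cytokines. DENSpm with cytokines was the highest of these for Tnk2os, without overlap. The adjusted p of the test among 6 groups was 0.00109 for Far1os and 1.74e-04 for Tnk2os. Without DENSpm 2 these were 0.00178 and 1.10e-04, and Rsf1 (adjusted p = 0.0528) and Slain1os (adjusted p = 0.0712) were no longer called. Ggnbp2os held 346, 344 and 337 CPM in vehicle and 239, 259.5 and 271 CPM in DFMO, and Phtf1os 2478, 2847 and 2259.7 CPM, 2369.7, 2342 and 2725 CPM and, in DENSpm, 2237, 1736 and 2044 CPM. DFMO was the lower for Ggnbp2os without overlap, and overlapped vehicle for Phtf1os, whose DENSpm libraries lay below every vehicle library.

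In 34 of the 65 pairs neither row was called in any test, and in 3 of these neither row was deep enough to be tested. The smallest of these pairs held 101 counts, the median pair 566.5 and the deepest 16884. Rab10 with 16884 counts, Fam219a with 14599 and Ino80d, a subunit of a chromatin remodelling complex, with 14388 had no call. The other 31 pairs, of 30 genes, held 33 called rows, 26 of them os rows and 7 gene rows. In all, 81 rows entered a fit, and the test among 6 groups covered 51 os rows and 30 gene rows. The share of all rows called in any test was not counted, and the test among 6 groups alone called 29.3% of them. Tested os rows were also deeper than tested gene rows, so the split between them is not a result about os rows.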

How the data were processed

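RNA of MIN6 cells was measured by poly(A), strand-specific RNA sequencing in 18 libraries, 3 in each of 6 groups, and samples were grouped by their treatment labels. The values used are the raw counts per gene as the authors deposited them, in a table for DFMO and a table for DENSpm that share the 6 libraries without a drug; the counts of those 6 were equal in both and were taken once. HTSeq, FastQC, DESeq2 and mm10 are named in the submitters' processing notes. The aligner, annotation and strand setting were not given in the sources used here. Among nonzero counts of the 129 rows, 126 were 2 and 109 were 4, against 95 that were 1 and 49 that were 3; an alternative with halved counts was run.

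Each table was fitted whole with edgeR 4.0.16 in R 4.3.3 (TMM, filterByExpr by group, robust quasi-likelihood F test, Benjamini-Hochberg adjustment over all rows, threshold 0.05). The biological coefficient of variation was 0.26 with DFMO and 0.296 with DENSpm. The standard error is the log2 fold change divided by the square root of F. A joined fit of 18 libraries gave the test among 6 groups and the CPM. The fit was tested on simulated data. Exon overlaps come from GENCODE vM21, in which 61 of the 65 os rows were matched, and 3 more rows were placed by RefSeq. Rows named are those called in a test, the deeper pairs with the gene's own row higher, pairs that share a gene, and pairs near the limit of 100 counts; Rab10, Fam219a, Ino80d, Fbxl12os and Hk1 were named after their values were seen. The pairs and lists were chosen with earlier results of these data known. Alternatives were DESeq2 1.42.0, DESeq2 size factors, no filter, halved counts, a replicate block, all 18 libraries joined, other limits for pairs, and each library left out. The deposited normalised tables were not used here.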

Additional observations from a re-analysis of the deposited data

How the results depend on the processing

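Of 55 calls of a row in a pairwise comparison, 21 held under every alternative run, 34 were lost under at least 1, and 0 reversed direction. With no filter on low counts, cytokines in vehicle called 5 rows, cytokines in DENSpm 4, and DENSpm with cytokines 1. Over all rows these comparisons then had 255, 203 and 38 calls, against 327, 246 and 44 in the main fits. With all 18 libraries fitted together, cytokines in vehicle called 4 rows, DFMO with cytokines 5 and DENSpm 1. All rows had 260, 269 and 27 calls there, against 327, 365 and 18 in the main fits. DESeq2 called 1 row for DENSpm and 2 for DENSpm with cytokines, and halved counts called 1 for DENSpm. Over all rows DESeq2 called 47 and 99, and halved counts called 31. The cause of these shifts was not tested.

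With each library left out in turn, the counts of called rows ran from 10 to 15 for DFMO, from 6 to 10 for DFMO with cytokines, from 0 to 1 for DENSpm and from 0 to 3 for DENSpm with cytokines. For cytokines they ran from 4 to 9 in vehicle, from 8 to 16 in DFMO and from 3 to 9 in DENSpm, and for the test among 6 groups from 27 to 33. Calls over all rows changed in these fits as well. Both interaction tests stayed at 0, and the os row stayed the higher in 50 pairs. At a limit of 50 counts the os row was the higher in 53 of 76 pairs and at 200 in 48 of 57.

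Replicate numbers are shared by the groups, but the labels tie them to no batch, and libraries of the same number did not deviate together: the median correlation was 0.00126 (-0.0602 to 0.0973), and 8 of 18 libraries correlated best with their own number. With the replicate number as a block, 12 rows were called for DFMO, 8 for DFMO with cytokines, 1 for DENSpm (Rsf1, adjusted p = 0.0494), 8 for cytokines in vehicle and 13 in DFMO. The block ended 7 of the 55 calls (adjusted p = 0.0521 to 0.063), those of Atcayos in vehicle, Fancd2os and Arhgap20os with DFMO, Rbm3os and Ccpg1 with DFMO and cytokines, and Alkbh3os1 and Arhgap20os with cytokines in DFMO. Totals of 403377 to 639625 counts left 48 of the 129 rows too low for any fit.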
